A study of Mus musculus with 10 samples.

Results

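The 36 genes described here encode the enzymes and transporters of glycolysis and a set of genes that cells switch on when oxygen is short. They were chosen by name, by matching Ensembl identifiers to gene symbols on the GRCm38 annotation, and are 36 of 37991 identifiers in the deposited table. The list holds 16 enzymes of the path from hexokinase to lactate dehydrogenase, 2 transporters, 3 regulators of flux, 3 oxygen-sensing genes, 2 mitophagy genes and 10 other hypoxia targets. They were measured by poly(A) RNA sequencing in primary keratinocytes, the main cells of the epidermis, cultured from mouse pup skin taken at postnatal day 4 to 5. All mice carried at least 1 mutant copy of Bcl10 (allele Bcl10tm1Mak), an adaptor of NF-kB signalling: knockout cultures were Bcl10-/- and control cultures were Bcl10+/- littermates, so no wild-type cells were compared. Each culture was left unstimulated or given 200 ng/mL recombinant mouse IL-17A, an inflammatory cytokine of the skin, for 5 h in low-calcium medium (0.05 mM). There were 2 knockout and 3 heterozygous cultures, each with 1 library per condition, 10 libraries in all. The labels do not say that the numbered cultures came from separate animals, so p-values measure only the spread between these libraries. The allele was not limited to keratinocytes by anything the labels state, and which part of the gene is missing was not given in the sources used here.

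Glycolysis splits glucose into pyruvate, which lactate dehydrogenase turns into lactate when pyruvate is not burned in mitochondria. Cells in normal oxygen hydroxylate the transcription factor HIF1A through EGLN (PHD) enzymes and destroy it, and in low oxygen it survives, binds DNA at sites with the core RCGTG (R is A or G) and raises glucose transporters, glycolytic enzymes, BNIP3-type mitophagy receptors and its own inhibitor Egln3. The epidermis has no blood vessels of its own, and keratinocytes are known for high glycolysis and GLUT1.

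The sequences before the start sites show where that core lies in 4 members chosen, after their values were seen, because the differences between cultures below turn on them. RefSeq promoters on GRCm38.p6 were matched by symbol for 34 of 36 members, without Bnip3l and Ndrg1. Each line gives 250 bases before a start site, 5′ to 3′ on the gene's strand, with each match to ACGTG or GCGTG, or to their reverse strands CACGT and CACGC, in capitals. A CACGTG counts as a match on both strands.
Bnip3 (chr7:138909507-138909756, minus strand): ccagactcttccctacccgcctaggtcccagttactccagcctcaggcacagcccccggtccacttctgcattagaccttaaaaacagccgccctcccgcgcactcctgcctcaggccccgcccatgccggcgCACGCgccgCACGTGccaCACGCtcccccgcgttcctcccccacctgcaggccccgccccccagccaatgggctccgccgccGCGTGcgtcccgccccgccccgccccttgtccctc
Slc2a1 (chr4:119108495-119108744, plus strand): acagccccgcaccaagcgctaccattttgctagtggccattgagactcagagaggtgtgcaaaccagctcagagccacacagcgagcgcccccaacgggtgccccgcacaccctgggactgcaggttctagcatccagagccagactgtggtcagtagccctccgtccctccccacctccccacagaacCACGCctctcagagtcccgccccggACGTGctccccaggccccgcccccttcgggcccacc
Egln3 (chr12:54203875-54204124, minus strand): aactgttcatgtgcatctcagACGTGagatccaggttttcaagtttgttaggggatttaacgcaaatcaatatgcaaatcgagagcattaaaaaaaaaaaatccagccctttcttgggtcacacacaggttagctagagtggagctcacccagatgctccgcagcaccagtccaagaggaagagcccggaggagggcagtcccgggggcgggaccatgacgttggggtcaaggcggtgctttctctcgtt
Kdm3a (chr6:71632918-71633167, minus strand): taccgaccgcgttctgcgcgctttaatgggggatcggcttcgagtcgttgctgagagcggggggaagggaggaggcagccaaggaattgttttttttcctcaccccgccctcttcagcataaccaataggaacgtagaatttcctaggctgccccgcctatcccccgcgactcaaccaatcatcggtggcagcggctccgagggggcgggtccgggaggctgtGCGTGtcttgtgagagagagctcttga
Bnip3 had 5 matches, Slc2a1 2, and Egln3 and Kdm3a 1 each. For each member the start nearest its GENCODE gene start was used, also in the lines above. Of the 34 members with a promoter, 26 (76.5%) held at least 1 match in this window. Of all 32851 promoters, which can include several starts of a gene, 38.6% did. Counting a match at any start, it was 31 of 34 members (91.2%) beside 41.5% of genes. The members were picked partly as known HIF targets, and a match of so short a core marks letters, not a bound site.

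Bcl10 itself went against a label. Its level was 0.969 and 16.4 FPKM (fragments scaled to transcript length and library size) in knockout culture 1, unstimulated and with IL-17A, and 16.998 and 16.6 in knockout culture 2. The 2 libraries of knockout culture 1 thus differed in Bcl10 under 1 label. The libraries labelled heterozygous culture 1 had 18.04 and 16.3, near the 16.4 to 16.998 of every knockout library except that low one. Heterozygous cultures 2 and 3 had 59.5 to 72.3. For that reason the genotype counts, medians and named members below are repeated with heterozygous culture 1 left out. The same cultures 2 and 3 also carried the library numbers 33 to 38, and the other 6 libraries numbers 1 to 14. The unstimulated library of knockout culture 1 stood apart in that 12.6% of its FPKM came from its 10 highest genes, where the other 9 libraries had 8.21% to 8.66%. Estimated depth was 50.8 M fragments in the IL-17A library of knockout culture 1 and 15.9 to 28.8 M in the other 9 libraries. A floor of 3 fragments in a 1 kb transcript equals 0.0591 to 0.188 FPKM, for counting error only. Keratinocyte markers summed to 9539 to 12948 FPKM.

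Of the 36 members, 32 had a mean of at least 1 FPKM and were tested. Among them Pkm, Ldha, Pgk1 and Aldoa had the highest mean levels per length. Pkm, the pyruvate kinase that yields pyruvate, had 686 to 1057 FPKM over the 10 libraries, Ldha (lactate dehydrogenase) 322 to 436, Pgk1 (phosphoglycerate kinase) 257 to 344 and Aldoa (aldolase) 262 to 377. The entry steps stood lower. Hk2, an inducible hexokinase, had 11.3 to 18.6 FPKM and the housekeeping Hk1 5.20 to 7.61, so that Hk2 made up 66.7% to 75.0% of their summed level. The liver-type phosphofructokinase Pfkl had 18.03 to 51.9 FPKM and made up 70.8% to 83.7% of the 3 phosphofructokinases. The brain-type isoforms were scarce: Aldoc had 1.81 to 3.35 FPKM, and Eno2 was listed at 0 to 0.0990. Car9, a carbonic anhydrase that is a common marker of hypoxic cells, was listed at 0 in 4 libraries and at 0.0498 to 0.176 in the others, and lay at or under the floor of its length in 5 of 10. Pfkfb4, a fructose bisphosphate regulator, had 0.370 to 1.22 FPKM, and Ankrd37, a hypoxia target, 0.448 to 1.10. These 4 members were not tested.

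**Figure D1:**
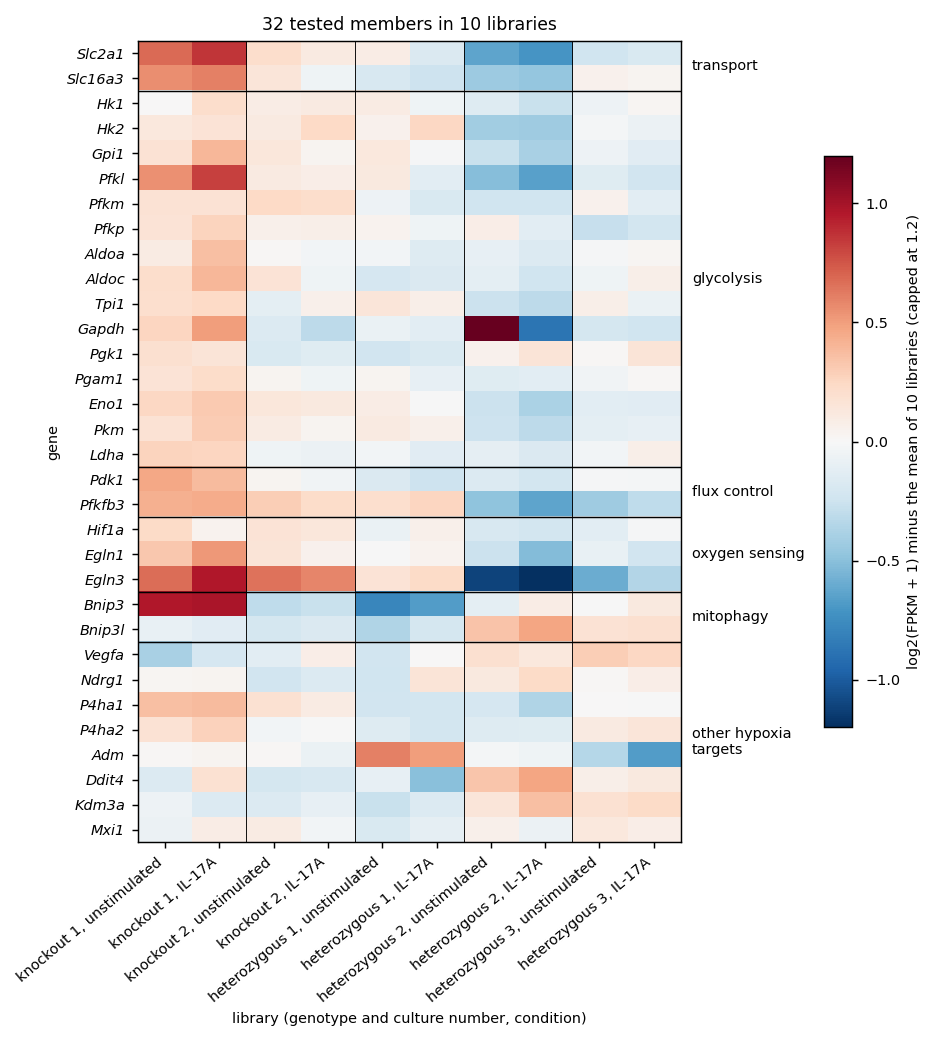
Heat map of the 32 tested members (rows, grouped by role) in the 10 libraries (columns), coloured by log2(FPKM + 1) minus the gene's mean over 10 libraries. The 2 columns of knockout culture 1 are reddest, with 19 members above every other library there (3.58% of all tested genes). Heterozygous culture 2 has the lowest mean for 18 members, beside 35.5% of all tested genes.

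Several enzyme levels depended on how reads were split with near-identical copies. Searching the transcripts of each member against GENCODE found 92 copies, 88 of them pseudogenes, for 11 members. Gapdh, the glyceraldehyde phosphate dehydrogenase that every cell uses, had only 0.278 to 4.58 FPKM in its own row, while its 66 copies summed to 176 to 384. Its own row thus held 0.158% to 2.27% of the total, and its values say little about the gene. For Pgk1 the 2 copies summed to 179 to 233 FPKM, for Pgam1 the 3 copies summed to 105 to 144, and for Eno1 the 2 copies summed to 162 to 388. The plot of members with their copies shows the Eno1 sum dropping in the IL-17A libraries of knockout culture 2 and heterozygous culture 1, where the copy Eno1b was listed at 0. These 4 members are uncertain. Bnip3 and Bnip3l are uncertain too, since their own rows held 67.5% to 86.9% and 60.9% to 67.5% of their totals with copies. Adding copies to each member left every count of called members below as it was.

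**Figure D2:**
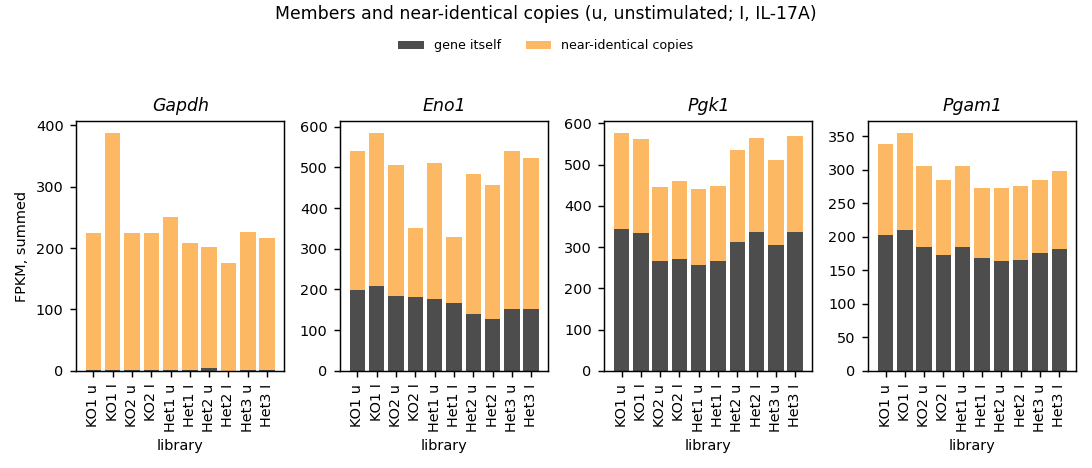
Stacked bars of FPKM (y axis) per library (x axis) for Gapdh, Eno1, Pgk1 and Pgam1, with the gene itself in dark and its near-identical copies in orange. Gapdh's own row is barely visible below copies that sum to 176 to 384 FPKM.

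IL-17A was compared with no stimulation within each genotype and averaged over the 5 cultures, to ask whether the cytokine moves these genes in 5 h. Of the 32 tested members, 0 were called among libraries labelled heterozygous, where 0.0083% of 12054 genes were called, 0 among those labelled knockout (background 0.0249%, of which 0.0166% lower) and 0 in the average over cultures (background 0.149%). At an unadjusted limma p under 0.05 the members numbered 0 in each, and all genes 162, 176 and 727. The 2 fits within a genotype did not pair the libraries of a culture. With culture as a fixed effect, 2 heterozygous and 0 knockout members were under that p, beside 6.93% and 5.04% of all genes. The members called were still 0. At least 1 gene did respond. Sprr2e, a cornified envelope gene, went from 5.73 to 9.10 FPKM in the unstimulated libraries to 20.0 to 21.7 with IL-17A (log2 difference 1.42 ± 0.09 SE, limma adjusted p = 0.0064). It was picked from these same data as the gene most changed by IL-17A, so it is no marker chosen beforehand. For 31 of the 32 members each change within a culture stayed under 0.5 on the log2(FPKM + 1) scale in size, as it did for 87.7% of all tested genes. Gapdh was the exception, at 4.58 and 0.278 FPKM in heterozygous culture 2.

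The members nearest to a call in the average were Bnip3 and Ndrg1, both higher with IL-17A in 5 of 5 cultures. Bnip3, a mitophagy receptor, differed by 0.10 ± 0.04 (SE; limma adjusted p = 0.824). Ndrg1, a stress and differentiation gene of epithelia, had 48.3 and 48.6 FPKM in knockout culture 1 and 40.2 and 42.1 in knockout culture 2, unstimulated and with IL-17A. It had 39.9 and 52.7 in heterozygous culture 1, 51.4 and 55.7 in culture 2 and 47.8 and 50.02 in culture 3. Its groups overlapped, and its averaged difference was 0.13 ± 0.06 (SE; limma adjusted p = 0.838). Pfkm and Pdk1 were lower in 5 of 5 cultures, by at most 0.18 and 0.08. Together 4 of 32 members (12.5%) differed in one direction in every culture, beside 7.94% of all tested genes. Adm, which encodes the vasodilator peptide adrenomedullin, differed by -0.11 ± 0.06 (SE; limma adjusted p = 0.878).

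Within each genotype, in the fit without pairing, the smallest unadjusted p belonged to Gapdh, Ndrg1 and Pfkm among heterozygous libraries. Among knockout libraries it belonged to Vegfa, Hif1a and Hk1, and all of these members had a limma adjusted p of 1. Vegfa, the main vascular growth factor, had 7.53 and 8.72 FPKM in knockout culture 1 and 9.24 and 10.8 in knockout culture 2, unstimulated and with IL-17A. It had 8.57 and 10.2 in heterozygous culture 1, 11.8 and 11.2 in culture 2 and 12.7 and 12.3 in culture 3, so the direction differed between cultures. Hif1a, the oxygen-regulated transcription factor itself, had 49.1 and 43.1, then 46.8 and 46.1, in the knockout cultures, and 35.8 to 43.7 in the heterozygous ones. The IL-17A responses of the genotypes were also compared directly, again without pairing. Of 32 members, 0 were called (background 0%), and the smallest limma adjusted p was 0.9997. At an unadjusted p under 0.05 there were 0 members and 143 genes in all. With culture as a fixed effect, 1 member and 5.18% of all genes were under that limma p, and 0 members were called.

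**Figure D3:**
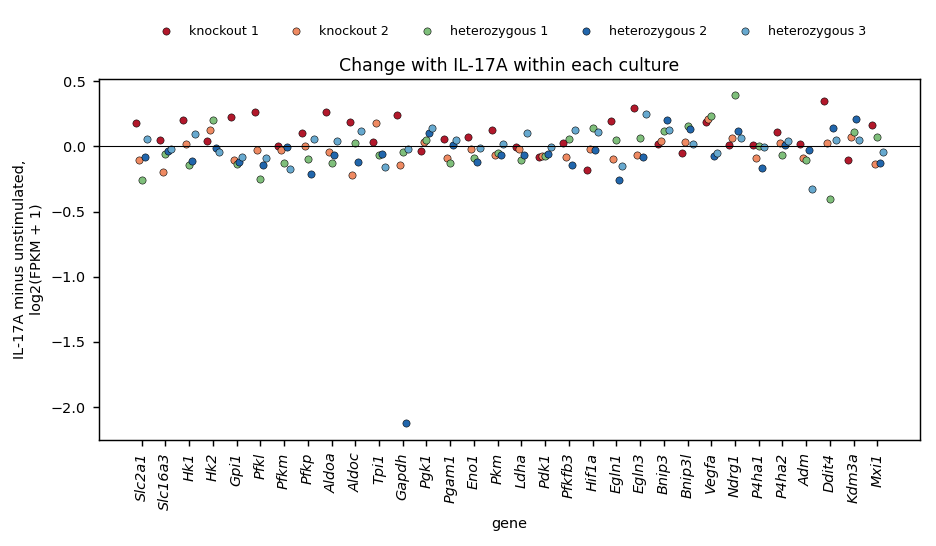
Each point is 1 culture's difference between its IL-17A and its unstimulated library, on log2(FPKM + 1), for the 32 tested members (x axis). Points lie within 0.41 of 0 in either direction, except Gapdh in heterozygous culture 2.

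The cultures differed from each other far more than the conditions did. The share of a member's sum of squares over the 10 libraries that lay between the 5 cultures had a median of 92.8% for the members and 79.6% for all tested genes, and exceeded 80% for 26 of 32 members and 49.3% of all genes. Bnip3 (98.8%), Egln3 and Pfkfb3 (both 98.5%) had the largest shares, and Gapdh (20.4%) and Ndrg1 (62.6%) the smallest.

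Knockout culture 1 stood highest. Both of its libraries lay above all other 8 libraries for 19 of 32 members, beside 3.58% of all tested genes, and below them for 0 (background 5.43%). Of the 15 tested path enzymes 10 did so, of the transporters 2 of 2, of the flux regulators 2 of 2, of the oxygen-sensing genes 2 of 3, of the mitophagy genes 1 of 2 and of the other hypoxia targets 2 of 8. The ratio of culture 1's mean to the mean of the other 8 libraries had a median of 1.23 for the members, from 0.748 to 2.41, and 0.979 for all tested genes. It was over 1 for 15 of 15 path enzymes, beside 44.4% of all tested genes. Gapdh, Eno1, Pgk1 and Pgam1, uncertain because of their copies, are among the 15. Knockout culture 1 is 1 culture, so the pattern has no replicate and no test, and its relation to the genotype cannot be told apart from the culture. The share of FPKM in the 10 highest genes was 12.6% in its unstimulated and 8.66% in its IL-17A library. Its IL-17A library was also the deepest of all, at 50.8 M fragments. Bcl10 differed between its libraries too, at 0.969 FPKM unstimulated and 16.4 with IL-17A. The part of the share in the 10 highest genes, of depth and of Bcl10 level in the pattern was not tested. With FPKM rescaled to TPM the count was 13 of 34 members against 1.68% of genes.

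The members with the highest ratios are named here after their values were seen. Bnip3 (ENSMUSG00000078566, chr7:138890836-138909519, minus strand), whose promoter with 5 matches is printed above, had 21.3 and 21.6 FPKM in knockout culture 1 and 8.27 and 8.54 in knockout culture 2. Heterozygous culture 1 had 5.64 and 6.19, culture 2 had 9.54 and 11.1 and culture 3 had 10.4 and 11.4. Culture 1 was thus 2.41 times the mean of the other libraries, and knockout culture 2 lay within the heterozygous range. The related Bnip3l did not follow. The share of Bnip3 in the summed level of both was 40.8% and 42.0% in knockout culture 1 and 17.9% to 23.3% in the other 8 libraries. Both genes have near-identical copies, which this share leaves out.

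Slc2a1 encodes GLUT1, the glucose transporter of keratinocytes (ENSMUSG00000028645, chr4:119108711-119137983, plus strand). It had 182 and 206 FPKM in knockout culture 1, 131 and 122 in knockout culture 2, 120 and 101 in heterozygous culture 1, 73.0 and 69.1 in culture 2 and 95.9 and 99.99 in culture 3. The 4 knockout libraries lay above the 6 heterozygous ones, with knockout culture 2 close to heterozygous culture 1. Slc16a3, the lactate exporter MCT4, had 10.2 and 10.6 FPKM in knockout culture 1 and 4.48 to 7.41 elsewhere. Pdk1, the kinase that closes the entry of pyruvate into mitochondria, had 7.99 and 7.498 there and 4.51 to 5.69 elsewhere. Pfkl, which catalyses the committed step of the path, had 43.0 and 51.9 FPKM there, 31.3 and 30.6 in knockout culture 2, and 31.5 and 26.4 in heterozygous culture 1. The other heterozygous libraries had 18.03 to 26.2. These named transcripts, for glucose entry, the committed step, lactate export and the block on pyruvate, thus stood highest in 1 culture. Other members did not: Hk2, Pfkm and Hif1a had their highest mean in knockout culture 2. The ratio of knockout culture 1 to the other 8 libraries was over 1 for 27 of 32 members, beside 44.4% of all tested genes. It was under 1 for Ddit4 (0.992), Adm (0.985), Kdm3a (0.890), Bnip3l (0.888) and Vegfa (0.748). In bulk RNA, more cells with a transcript and more transcript per cell cannot be told apart.

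**Figure D4:**
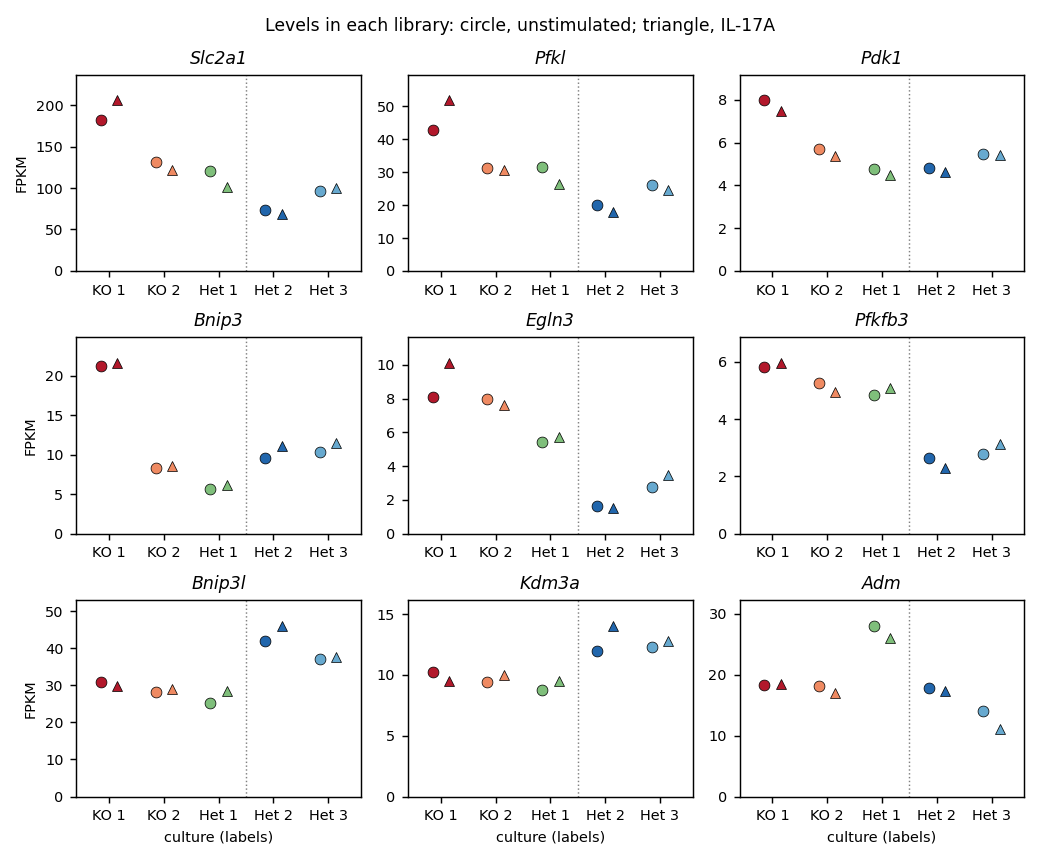
FPKM (y axis, from 0) of 9 members in each library by culture (x axis), circles unstimulated and triangles IL-17A; the dotted line separates library numbers 1 to 14 (left) from 33 to 38 (right). Bnip3 is near 21 FPKM in knockout culture 1 only, whereas Egln3 and Pfkfb3 step down and Bnip3l and Kdm3a step up across the dotted line.

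Between genotypes, the question was whether loss of BCL10 shifts these genes. Of 32 members, 0 were called in unstimulated cells (background 0%) and 0 with IL-17A (background 0.0249%). Bcl10 itself was not called, at -2.85 ± 0.96 unstimulated (SE; limma adjusted p = 0.728) and -1.29 ± 0.96 with IL-17A (adjusted p = 0.531). The 0 thus cannot say that loss of BCL10 leaves these genes unchanged. The members' median log2 difference, knockout minus heterozygous, was 0.19 unstimulated and 0.28 with IL-17A, against -0.01 for all tested genes in both. It was above 0 for 25 and 26 of 32 members. At an unadjusted limma p under 0.05 there were 6 and 9 members (18.8% and 28.1%), beside 4.66% and 8.14% of all genes, and each of these members was higher in the knockout. These values rest on single libraries. Without the unstimulated library of knockout culture 1, 0 members were under that p in unstimulated cells (2.19% of all genes) and the median was 0.12. Without its IL-17A library, 1 member was under it with IL-17A (2.77% of all genes) and the median was 0.14. Without the matching library of heterozygous culture 2, there were 2 members in each condition (2.31% and 3.17% of all genes). All 4 knockout libraries lay above all 6 heterozygous libraries for 6 of 32 members (Pfkm, Eno1, Slc2a1, Egln1, Egln3 and P4ha1), beside 3.09% of all genes. Eno1 is 1 of the members made uncertain by copies, and with copies added 5 members were left; with TPM scaling there were 9 of 34. The knockout libraries lay below the heterozygous ones for 0 members (background 2.21%). Against the libraries labelled heterozygous culture 1 alone, the knockout libraries lay higher for 14 members (13 with copies added; background 8.29%) and lower for 1, Adm (background 7.65%).

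In unstimulated cells the smallest p belonged to Hif1a, P4ha1 and Egln3. P4ha1, a collagen prolyl hydroxylase subunit, had 22.6 and 22.9 FPKM in knockout culture 1, 19.9 and 18.6 in knockout culture 2, 14.7 and 14.8 in heterozygous culture 1, 15.0 and 13.3 in culture 2 and 17.4 and 17.3 in culture 3. The groups did not overlap, with a difference of 0.42 ± 0.14 unstimulated (SE; limma adjusted p = 0.728) and 0.43 ± 0.14 with IL-17A (adjusted p = 0.507). Hif1a differed by 0.33 ± 0.11 unstimulated (limma adjusted p = 0.728). Pfkm, the muscle-type phosphofructokinase, had 2.37 and 2.37, then 2.54 and 2.48 FPKM in the knockout cultures and 1.53 to 2.10 in the heterozygous ones. With IL-17A its difference was 0.38 ± 0.11 and that of Pfkl 0.79 ± 0.27 (SE; limma adjusted p = 0.507 for both).

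Leaving out heterozygous culture 1 changed the calls. Unstimulated, 0 of 32 members were still called, against 0.97% of all genes. The members' medians were then 0.24 unstimulated and 0.31 with IL-17A, and 9 and 14 members had an unadjusted p under 0.05, beside 25.6% and 35.9% of all genes. The 4 knockout libraries lay above the other 4 heterozygous libraries for 12 members (37.5%; background 20.3%) and below them for 3 (Bnip3l, Vegfa and Kdm3a; background 21.4%). P4ha1 differed by 0.37 and 0.42 (unstimulated and IL-17A) and Hif1a by 0.36 unstimulated. With IL-17A the difference of Pfkm was 0.38 and that of Pfkl 0.89, and none of these 4 passed the threshold (limma adjusted p 0.0829 to 0.204). With IL-17A, Pfkfb3 was higher in the knockout by 0.80 ± 0.14 (SE; limma adjusted p = 0.0354) and Egln3 by 1.55 ± 0.29 (adjusted p = 0.038), and Kdm3a was lower by 0.42 ± 0.09 (adjusted p = 0.0465). Over all alternatives the limma adjusted p ran from 0.0177 to 1 for Pfkfb3, 0.0155 to 1 for Egln3 and 0.0269 to 1 for Kdm3a. The lowest value of each came with library weights, in a fit whose weights did not converge. The 3 of 32 members called with IL-17A without heterozygous culture 1 (9.38%) stand beside 6.65% of all genes. These genotype fits, with or without that culture, counted the libraries of a culture as independent. Without heterozygous culture 1 every heterozygous library carries a number from 33 to 38, so genotype and library number set cannot be told apart there. With the set as a term beside genotype, 0 members were called. That fit compares the knockout libraries mainly with the libraries labelled heterozygous culture 1, whose Bcl10 is near that of most knockout libraries. It is thus no genotype effect freed of the set. The difference of Egln3 was then 0.50 and 0.54 in place of 1.18 and 1.21, that of Pfkfb3 0.14 and 0.10 in place of 0.60 and 0.56, and that of Bnip3 1.13 and 1.02 in place of 0.63 and 0.52 (unstimulated and IL-17A). The difference of Kdm3a with IL-17A turned from -0.27 to 0.02 with the term.

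**Figure D5:**
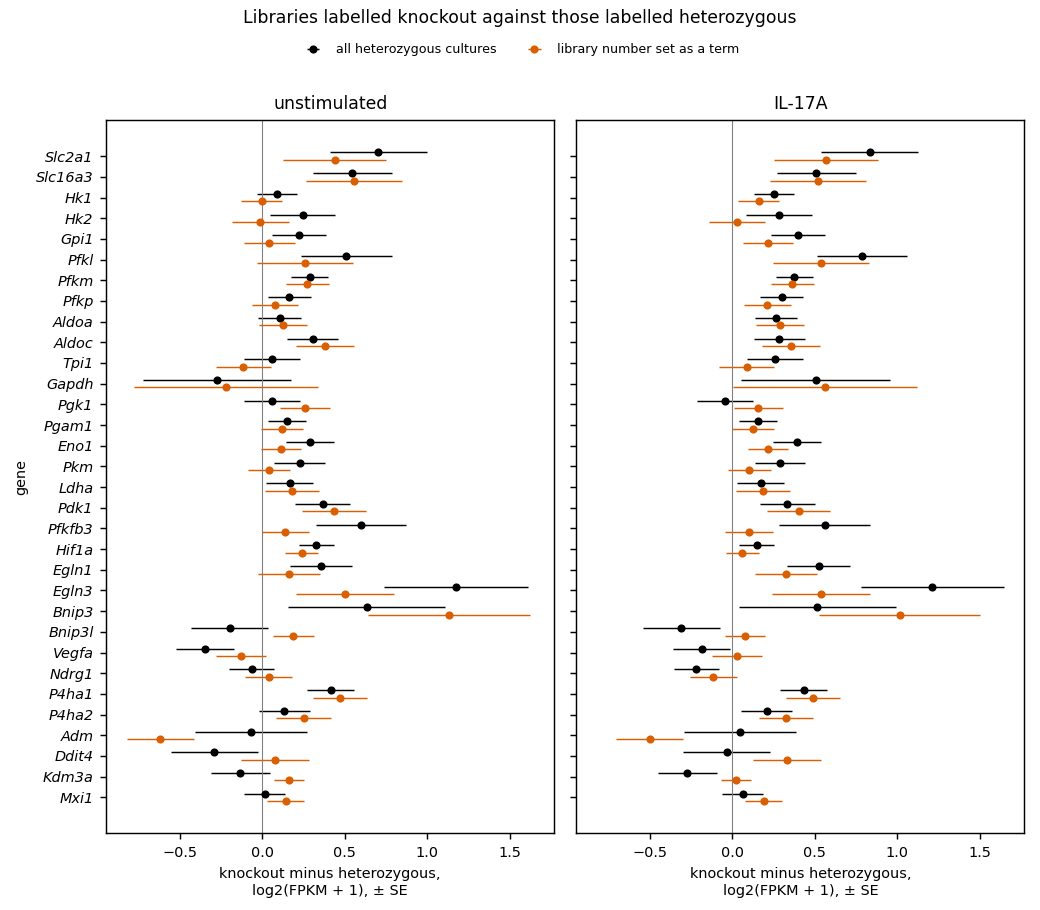
Log2 difference, knockout minus heterozygous libraries, ± SE (x axis) for the 32 tested members in unstimulated (left) and IL-17A-treated (right) cells, from the fit of 4 group means (black) and with library number set as a term (orange). Most points lie right of 0, and Egln3 and Pfkfb3 move toward 0 with the term while Bnip3 moves away.

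The 2 sets of library numbers were then compared within the same fit; given the 4 group means, this contrast sets heterozygous cultures 2 and 3 against the libraries labelled heterozygous culture 1. Those cultures also differ in Bcl10 level, so set and Bcl10 level cannot be told apart here. Here 6 of 32 members were called (18.8%), 3 higher and 3 lower in numbers 33 to 38, beside 23% of all tested genes (11.2% higher and 11.8% lower). The members' share is near that of all genes and is no result about them. It counts libraries of a culture as independent; with culture as a random effect 4 members (12.5%) and 4.83% of genes were called. Without the unstimulated or without the IL-17A library of heterozygous culture 1, 0 members were called (smallest limma adjusted p 0.117 and 0.15).

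Lower in numbers 33 to 38 were Egln3, Pfkfb3 and Adm. Egln3 (ENSMUSG00000035105, chr12:54178981-54203860, minus strand), the most hypoxia-inducible HIF hydroxylase, had 8.07 and 10.1 FPKM in knockout culture 1, 7.98 and 7.60 in knockout culture 2, and 5.41 and 5.70 in heterozygous culture 1. It had 1.64 and 1.496 in heterozygous culture 2 and 2.77 and 3.48 in culture 3. The sets did not overlap, and the difference was -1.01 ± 0.24 (SE; limma adjusted p = 0.0254). Pfkfb3, which makes the fructose bisphosphate that activates phosphofructokinase, had 5.83 and 5.96, 5.26 and 4.93, and 4.85 and 5.08 FPKM in the cultures of the first set, in the same order. Heterozygous cultures 2 and 3 had 2.63 and 2.29, and 2.80 and 3.14. The sets did not overlap, with a difference of -0.69 ± 0.11 (SE; limma adjusted p = 0.0118). Adm had 28.0 and 26.0 FPKM in heterozygous culture 1, 17.01 to 18.5 in the knockout libraries, 17.8 and 17.4 in heterozygous culture 2 and 14.1 and 11.0 in culture 3. Its difference of -0.83 ± 0.16 (SE; limma adjusted p = 0.0171) rests on heterozygous culture 1, since the knockout and heterozygous culture 2 libraries overlap.

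Higher in numbers 33 to 38 were Bnip3l, Ddit4 and Kdm3a. Bnip3l (NIX), a mitophagy receptor, had 30.9 and 29.8 FPKM in knockout culture 1, 28.3 and 29.0 in knockout culture 2, 25.3 and 28.3 in heterozygous culture 1, 41.9 and 46.0 in culture 2 and 37.1 and 37.7 in culture 3. The sets did not overlap (difference 0.58 ± 0.10 SE, limma adjusted p = 0.0119). Kdm3a, a histone demethylase that HIF1A raises, had 8.74 to 10.3 FPKM in the 6 libraries of the first set, and 11.99 and 14.1, and 12.3 and 12.8, in heterozygous cultures 2 and 3 (0.44 ± 0.07 SE, limma adjusted p = 0.0113). Ddit4 (REDD1), an inhibitor of mTOR signalling, had 68.3 and 87.1, 66.1 and 67.2, and 71.6 and 53.8 FPKM in the first set. It had 96.9 and 107, and 80.5 and 83.5, in heterozygous cultures 2 and 3, so the sets overlapped (0.55 ± 0.17 SE, limma adjusted p = 0.0471). Over the 10 libraries 3 members lay wholly higher in numbers 33 to 38 (background 18.4%) and 9 wholly lower (28.1% of members, background 17.4%). Known HIF targets thus lay on both sides.

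Other values moved with the sets. Melanocyte markers, 6 of 6 above 1 FPKM, summed to 316 to 407 FPKM in numbers 33 to 38 and to 169 to 197 in the other 6 libraries. The mitochondrially encoded mt-Atp6 had 245 to 283 FPKM against 945 to 1220. Their part in the differences of the members was not tested. Fibroblast markers, 7 of 7 above 1 FPKM in knockout culture 2, summed to 35.3 and 35.5 FPKM there and to 0.496 to 1.62 elsewhere, with 1.39 and 1.62 in knockout culture 1.

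Pathway genes outside the 36 were followed in 4 lists: other glycolytic isoforms and linked enzymes (15 of 25 tested), pyruvate entry into mitochondria (10 of 12), oxygen sensing and HIF regulators (12 of 14) and other hypoxia-induced genes (35 of 40). With IL-17A averaged over cultures, 1 of these genes was called with limma, and 0 in each of the other comparisons of IL-17A, genotype or response. The called gene was Ier3, a stress-response gene, which rose by 0.36 ± 0.03 (SE; limma adjusted p = 0.0218). Its levels went from 169 to 225 FPKM in knockout culture 1, 181 to 230 in knockout culture 2, 203 to 266, 253 to 321 and 286 to 349 in heterozygous cultures 1 to 3, higher in 5 of 5. Between genotypes, the genes with an unadjusted p under 0.05 numbered 0, 1, 1 and 7 unstimulated and 0, 0, 2 and 10 with IL-17A in the 4 lists, beside 4.66% and 8.14% of all genes. Between library sets the lists had 2 genes higher and 3 lower, 2 and 1, 3 and 1, and 8 and 3, in the order above, beside 11.2% of all genes higher and 11.8% lower. Slc2a3, the glucose transporter GLUT3, had 1.29 to 2.22 FPKM in numbers 1 to 14 and 0.176 to 0.269 in 33 to 38 (-1.06 ± 0.11 SE, limma adjusted p = 0.0035). Angptl4, a lipase inhibitor, was higher in 33 to 38, by 0.86 ± 0.14 (SE; limma adjusted p = 0.0113).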

How the data were processed

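The deposited values were FPKM in 1 table of 10 libraries, of which 0 sample columns went unused. StringTie, HISAT2, DESeq2 and SAMtools with build mm10 were named, per the submitters' processing notes, with versions, strand setting and gene models not given in the sources used here. No count test was run, because FPKM are not counts. Low values came within 0.05 of whole fragments in 48.5% to 55.3% of cases, against 10% for even spread, which gave the depth estimate.

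The 12054 genes whose mean reached 1 FPKM were tested on log2(FPKM + 1) with limma 3.58.1 in R 4.3.3 with its mean-variance trend and 4 group means. For the IL-17A average, culture was a fixed effect, and for the library number sets, the set was added as a term. Tests were two-sided with Benjamini-Hochberg adjustment over all tested genes and a threshold of 0.05. Fold changes on this scale understate the change of low genes. Near-identical copies were sought with blastn 2.17.0 (at least 90% identity over at least 50% of the copy and 200 bases).

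Libraries of the same genotype and number were taken as 1 culture: their deviations from the group means correlated across genes at 0.607, 0.488 and 0.137 in the heterozygous cultures and at 0.227 in the knockout, where 2 cultures mirror each other. Across genotypes the numbers gave -0.155 to 0.0476 and were not taken as pairs. Members and lists were chosen with earlier results of these data known. Members with a call in any of 7 comparisons, or else the 3 of smallest p, are given in every library, other members by range; of other lists, called genes or the 2 of smallest p may be named.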

Additional observations from a re-analysis of the deposited data

Results flagged for a closer look

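Tpi1, the triose phosphate isomerase, moved in opposite directions with IL-17A in the cultures of each genotype. On log2(FPKM + 1) it was higher by 0.04 and 0.18 in knockout cultures 1 and 2, and differed by -0.07, -0.05 and -0.15 in heterozygous cultures 1, 2 and 3. Its difference in response was 0.20 ± 0.24 (SE), with an unadjusted p of 0.427 and an adjusted p of 0.9997 by limma across all genes. It did not pass the test. That fit did not pair the libraries of a culture, so its SE holds the spread between cultures. Over all alternatives, paired fits among them, the limma adjusted p of Tpi1 was at least 0.554. Such opposite directions occurred for 1 of 32 members and for 7.32% of all tested genes.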

How the results depend on the processing

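The counts of called members were recomputed under other pseudocounts, filters, scalings, a fit without the trend, library weights, omitted libraries and cultures, and fits with culture as a replicate block. With the replicate block as a fixed effect, 0 members were called for IL-17A in either genotype and for the difference in response, and the paired fits changed no other count by over 1.5 times. Leaving out 1 library at a time gave 0 to 7 called members between library number sets, beside 0.166% to 27.8% of all genes. It gave 19 to 21 members above the other libraries in knockout culture 1, beside 3.72% to 13.5% of all genes. Without the unstimulated or the IL-17A library of that culture, 20 and 21 members stood beside 13.5% and 9.44% of all genes. In the other comparisons 0 members were called. With library weights, 8 members were called for IL-17A in heterozygous libraries, 11 and 12 between genotypes (unstimulated and IL-17A) and 13 between sets, beside 38.6%, 24.3%, 29.5% and 42.8% of all genes. In the fit of 4 group means the weights did not converge, so its 8, 11 and 12 called members are not reliable. The weights there ran from 0.197 to 33.4, the highest on heterozygous culture 3 with IL-17A. In the fit with the set they ran from 0.443 to 2.99, the highest on the libraries of heterozygous culture 1. The cause was not tested. Without heterozygous culture 1, the genotype comparison with IL-17A had 3. Between genotypes with IL-17A, Kdm3a ran from -0.42 to 0.02 and Bnip3 from -0.11 to 1.14, the lowest without knockout culture 1. Between sets, Ddit4 missed the threshold in 15 of 23 alternatives and Egln3 in 8. With TPM scaling 727 genes were higher and 1590 lower between sets, in place of 1349 and 1428. The set comparison without heterozygous culture 1, and Gapdh, Pfkm and Pfkfb3 with a mean of at least 5 FPKM, could not be fitted. Alternatives on near-identical copies and on knockout culture 1 were chosen after seeing the data.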

Other observations

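In knockout culture 1, the pathway genes outside the members did not all stand high. Both of its libraries lay above the other 8 for 1 of 15 other glycolytic and linked genes, 0 of 10 genes of pyruvate entry into mitochondria, 0 of 12 oxygen-sensing and HIF regulator genes and 5 of 35 other hypoxia-induced genes, beside 3.58% of all tested genes. The ones that did were Pgm1, a phosphoglucomutase, at 17.6 FPKM or more against at most 14.7 elsewhere, and Fam162a, Ak4, Car12, Gys1 and Plod2. Fam162a, a mitochondrial protein gene of the hypoxia response, had at least 158 FPKM there and at most 124 elsewhere. These genes were named after their values were seen, and 1 culture allows no test.

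Hmox1, heme oxygenase, had the smallest p among the listed genes between genotypes, with 22.1 to 26.8 FPKM in the 4 knockout libraries and 34.0 to 43.3 in the 6 heterozygous ones. Its difference was -0.53 ± 0.12 unstimulated (SE; limma adjusted p = 0.728) and -0.66 ± 0.12 with IL-17A (adjusted p = 0.507). It did not pass the threshold in either condition, though the groups did not overlap and heterozygous culture 1 lay with the other heterozygous cultures.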
